A study of Mus musculus with 18 samples.

Results

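Transcripts of 7 genes known from myeloid cells were measured in naive CD4 T cells that had been sorted from mice, as a readout of how much myeloid RNA each sorted sample held. The genes were S100a8, S100a9, Lyz2, Itgam, Tyrobp, Fcer1g and Plac8, chosen by symbol, and they are 7 of the 23953 gene rows of the deposited expression table. The samples were 18 RNA-seq libraries of naive T cells (CD4+CD25- cells of naive surface phenotype, isolated by flow cytometry) from C57BL/6 mice of 6 genotypes, with 3 libraries per genotype. Wild-type (WT) cells were the control. A transgene for a single microRNA of the miR-232724 family was carried by the miR-23 Tg, the miR-24 Tg and the miR-27 Tg mice, one for the whole cluster by the cluster Tg mice, and the DKO mice had a double knockout of the miR-23 cluster. The sources used here do not give the promoter or Cre behind the transgenes and the deletion, the age of the mice or whether animals were pooled. The genotype field adds "Tg" to WT and DKO as well, and the groups follow the sample titles. Whether each library is a separate mouse is not stated by the labels; the p-values therefore measure only how these libraries vary, which may partly be technical. Values are RPKM (reads scaled to transcript length and to library size) as deposited. Fold changes are on the log2(RPKM + 1) scale, where changes of low genes come out too small, and a gene was called changed where the adjusted p of limma was under 0.05.

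Neutrophils, monocytes and macrophages arise from a myeloid progenitor and carry a set of transcripts that resting T cells hold at low levels. S100a8 and S100a9 encode the calcium-binding proteins that pair to form calprotectin, which is among the most abundant proteins in the cytosol of neutrophils. Lyz2 encodes lysozyme M, Itgam the CD11b chain of a beta2 integrin, Tyrobp and Fcer1g the signalling adaptors DAP12 and the Fc receptor gamma chain, and Plac8 a small cysteine-rich protein. None of the 7 is restricted to myeloid cells under all conditions: both adaptors serve natural killer cells, and Itgam and Plac8 are also transcribed in some lymphocytes.

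The hairpins were read first, as a check of the labels. Each library of a single transgenic and each cluster Tg library held the hairpins of its transgene (Mir23a, Mir24-2 or Mir27a) at 13890 RPKM or more, where the highest WT value of any of the 3 was 279.5 RPKM. In DKO, Mir23a and Mir27a were at most 76.1 and 39.5 RPKM and Mir24-2 was listed at 0. Cd3e and Cd4, which mark the sorted cells, were high in all 18 libraries, at 266.6 to 564.7 and 334.2 to 617.2 RPKM. Between 10103 and 10615 genes reached 1 RPKM per library; the table holds no read counts, so depth is unknown and no counting error is given. The third libraries of miR-27 Tg and of DKO differed from the rest in their short transcripts. Over 940 genes with transcripts under 1000 nucleotides, the median log2 difference of miR-27 Tg replicate 3 and of DKO replicate 3 from the WT mean was 0.84 and 0.47, against -0.06 to 0.04 in the other 16 libraries. Of the miR-23 Tg columns, 2 carry the same name; they are called column 3 and column 4 and have no replicate number.

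By group mean, 6 of the 7 genes were highest in miR-27 Tg cells, and Itgam was highest in cluster Tg cells. The next highest group was miR-24 Tg for S100a8, S100a9, Lyz2, Tyrobp and Fcer1g, cluster Tg for Plac8 and miR-27 Tg for Itgam. For the S100 pair the first place of miR-27 Tg rested on replicate 3, at 283.6 and 281.3 RPKM. Replicates 1 and 2 held 3.81 and 11.7 RPKM of S100a8 and 6.34 and 18.1 of S100a9. These values lay below the miR-24 Tg means of 20.2 and 19.5 RPKM. Those means rested in turn on miR-24 Tg replicate 1, at 46.3 and 50.3 RPKM. Replicates 2 and 3 of miR-24 Tg held 12.7 and 1.70 RPKM of S100a8 and 7.47 and 0.714 of S100a9. Cluster Tg cells held high Itgam and Plac8 with the S100 pair at or near 0. In miR-27 Tg, all 7 were called higher than WT, in a comparison that called 8.95% of the 11099 genes tested, with 5.77% called higher. In cluster Tg, Itgam and Plac8 were called higher and the other 5 were not (8.48% of genes called, 5.63% higher). In miR-24 Tg none of the 7 was called (3.59% of genes called), although each had an unadjusted p under 0.05 in limma. None was called in miR-23 Tg, where 0.0450% of genes were called, and none had an unadjusted p under 0.05. In DKO limma called 0.00% of genes, with 81 genes and none of the 7 at an unadjusted p under 0.05. The F test of limma over the 6 genotypes called all 7, against 19.0% of genes tested. These counts describe genes of which 5 passed the filter on low values (1 RPKM in at least 3 libraries) through libraries of miR-24 Tg, miR-27 Tg or cluster Tg. These were S100a8, S100a9, Lyz2, Tyrobp and Fcer1g. The filter favoured a difference in them, and the counts support nothing beyond each gene's own value. In RNA of a sorted population, more cells of a type and more RNA per cell cannot be told apart.

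Library by library, every miR-27 Tg and every miR-24 Tg library lay above every WT library for all 7 genes. A gap of that kind occurred for 15.0% of all tested genes in miR-27 Tg and for 17.5% in miR-24 Tg. In cluster Tg it occurred for 5 of the 7 (22.1% of tested genes), the S100 pair being the exceptions. In miR-23 Tg and DKO it occurred for none of the 7 (15.2% and 2.44% of tested genes), and Itgam lay below every WT library in miR-23 Tg (13.6% of tested genes).

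**Figure D1:**
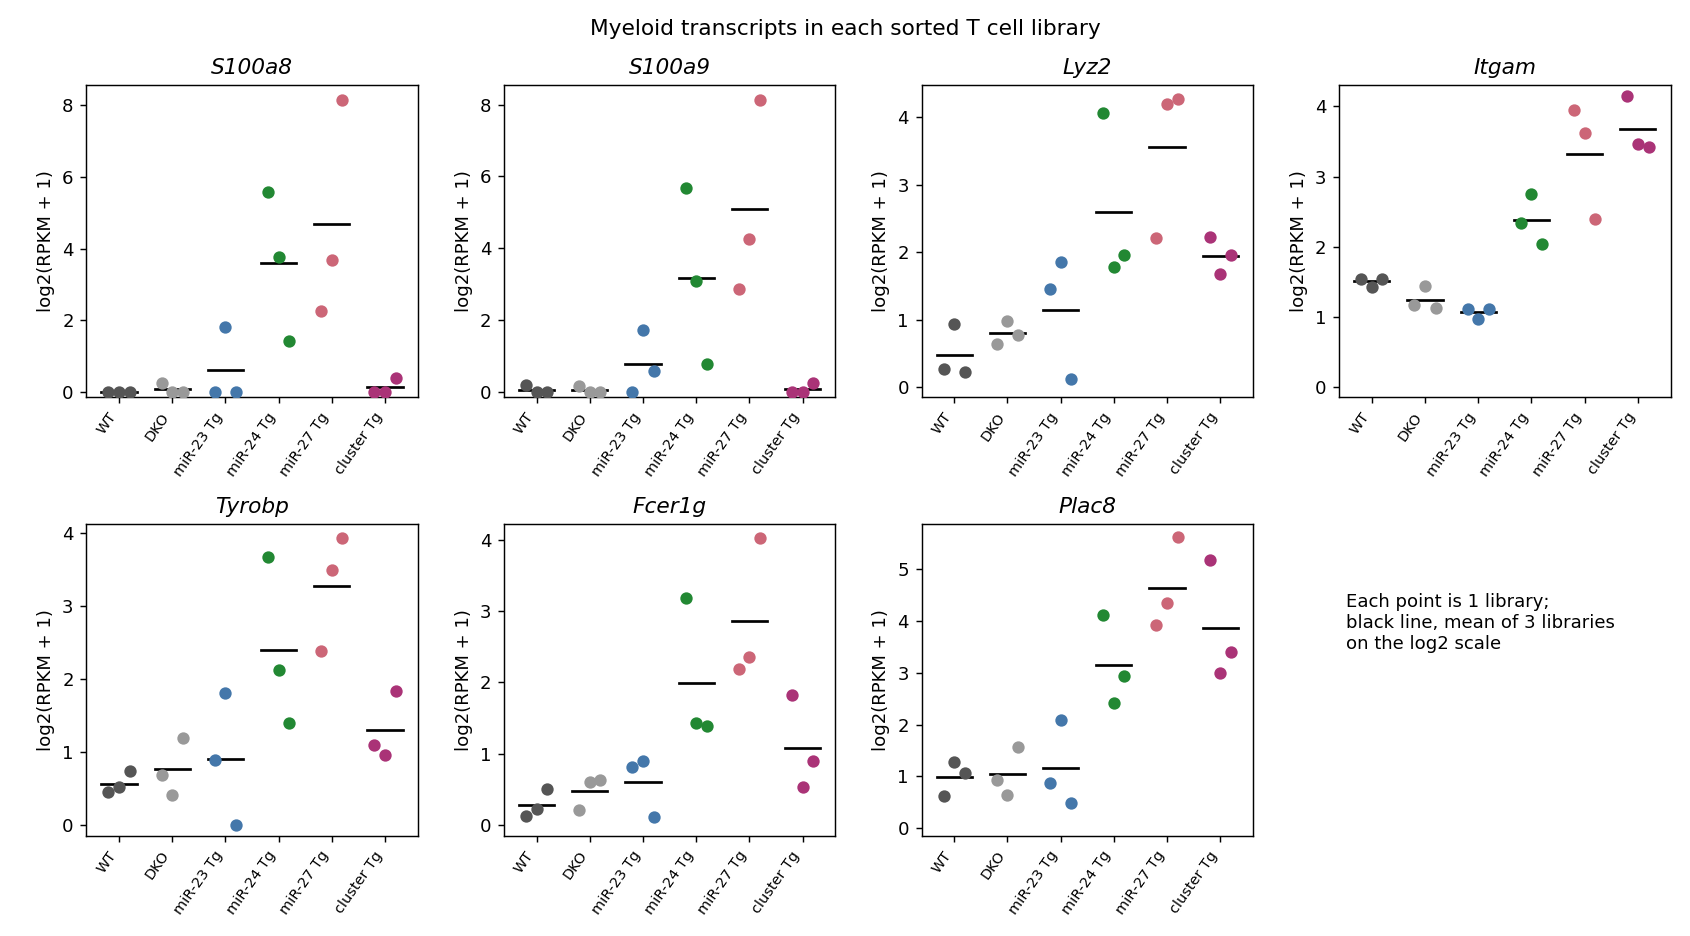
Level of each of the 7 genes in each library, as log2(RPKM + 1) on the vertical axis and genotype on the horizontal axis; a point is 1 library and the black line is the mean of 3 libraries on the log2 scale. The S100 pair is spread over several log2 units within miR-24 Tg and miR-27 Tg and lies near 0 in cluster Tg, whereas Itgam is highest in cluster Tg.

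S100a8 and S100a9, neighbouring genes on chromosome 3 in the RefSeq annotation, encode the 2 subunits of calprotectin. Their promoters are shown because the transcripts moved together from library to library. Each run gives the 250 bases before and 50 bases after the annotated start, on the gene's strand, from RefSeq on build GRCm38.p6, at chr3:90668821-90669120 on the plus strand for S100a8 and chr3:90695672-90695971 on the minus strand for S100a9. Capitals mark matches to TATAAA, the core of the box that positions transcription, to GAGGAA, a core bound by the myeloid factor PU.1, and to TTNNGCAA or TGNNGCAA, forms of the site of C/EBP factors. They were searched on both strands and chosen after the values were seen.
S100a8: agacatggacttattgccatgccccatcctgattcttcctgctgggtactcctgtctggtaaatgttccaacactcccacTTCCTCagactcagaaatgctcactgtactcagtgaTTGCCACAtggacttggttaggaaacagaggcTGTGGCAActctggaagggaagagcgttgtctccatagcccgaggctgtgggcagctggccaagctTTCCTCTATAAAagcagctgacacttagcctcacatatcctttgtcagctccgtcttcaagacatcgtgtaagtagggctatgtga
S100a9: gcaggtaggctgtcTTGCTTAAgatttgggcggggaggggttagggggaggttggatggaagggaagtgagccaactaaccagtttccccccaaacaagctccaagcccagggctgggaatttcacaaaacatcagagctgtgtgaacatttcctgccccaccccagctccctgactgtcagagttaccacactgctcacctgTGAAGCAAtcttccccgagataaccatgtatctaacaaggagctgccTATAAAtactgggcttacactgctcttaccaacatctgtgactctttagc
S100a8 has a TATAAA that begins 30 bases before the annotated start, directly after a reverse-strand GAGGAA, and another reverse GAGGAA at -170. Its TGNNGCAA matches begin at -134 on the reverse strand and at -102 on the gene's strand. S100a9 has TATAAA at position 1 of the annotated transcript, TTNNGCAA at -236 on the reverse strand and TGNNGCAA at -47. Of 32851 mouse promoters of this length in the table, 13.6% hold TATAAA, 28.3% GAGGAA, 10.8% TTNNGCAA and 11.4% TGNNGCAA, so the matches are a description of these letters and not of binding.

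S100a8 was listed at 0 in all 3 WT libraries, in DKO replicates 2 and 3, in miR-23 Tg column 3 and replicate 1 and in cluster Tg replicates 1 and 2. The remaining libraries of those genotypes held 0.195 RPKM in DKO replicate 1, 2.50 in miR-23 Tg column 4 and 0.319 in cluster Tg replicate 3. In miR-24 Tg the values were 46.3, 12.7 and 1.70 RPKM in replicates 1, 2 and 3. They were 3.81, 11.7 and 284 RPKM in miR-27 Tg. The miR-24 Tg and miR-27 Tg libraries thus lay above every WT library, but they overlapped each other and the lowest of them lay below miR-23 Tg column 4. The rise in miR-27 Tg was 4.70 ± 1.19 (SE) on the log2 scale (limma adjusted p = 0.0247), and it was 2.97 (adjusted p = 0.0446) without replicate 3. In miR-24 Tg the difference of 3.59 ± 1.19 did not pass (limma adjusted p = 0.131), nor did that of 0.13 in cluster Tg (adjusted p = 0.985). With WT at 0 no ratio of RPKM is given.

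S100a9 followed the same libraries. It was listed at 0 in WT replicates 2 and 3, DKO replicates 2 and 3, miR-23 Tg column 3 and cluster Tg replicates 1 and 2, and reached 0.139 RPKM in WT replicate 1, 0.115 in DKO replicate 1 and 0.188 in cluster Tg replicate 3. In miR-23 Tg, column 4 held 2.33 RPKM and replicate 1 held 0.499. The miR-24 Tg libraries held 50.3, 7.47 and 0.714 RPKM, and the miR-27 Tg libraries 6.34, 18.1 and 281. As for its partner, the 2 high genotypes overlapped each other and the lowest miR-24 Tg library lay below miR-23 Tg column 4. The rise in miR-27 Tg was 5.03 ± 1.17 on the log2 scale (limma adjusted p = 0.0155), and 3.50 (adjusted p = 0.0337) without replicate 3. The differences of 3.12 in miR-24 Tg and 0.02 in cluster Tg did not pass (limma adjusted p = 0.198 and 0.999). The S100a8 call in miR-27 Tg was lost whichever WT library was left out, although all 3 listed the gene at 0. Without WT replicate 1, 2 or 3, limma gave it an adjusted p of 0.0748, 0.0700 or 0.0718. The S100a9 call was lost without WT replicate 3 (limma adjusted p = 0.0524). With limma fitted to the 6 WT and miR-27 Tg libraries alone, none of the 7 genes was called, with adjusted p-values from 0.0564 for Plac8 to 0.304 for S100a8.

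The S100 pair was concentrated in few libraries. The library miR-27 Tg replicate 3 alone held 78.2% of the S100a8 RPKM and 76.5% of the S100a9 RPKM summed over the 18 libraries, and miR-24 Tg replicate 1 came next for both. Where both were above 0, S100a9 stood at 0.420 to 1.66 times S100a8. In relation to the T cell transcript Cd3d, a chain of the T cell receptor complex, S100a8 stood at a ratio of 0.204 in miR-27 Tg replicate 3, 0.124 in miR-24 Tg replicate 1, 0.0375 in miR-24 Tg replicate 2 and 0.0336 in miR-27 Tg replicate 2. Both S100 transcripts are short (498 and 519 nucleotides), and short transcripts read high in miR-27 Tg replicate 3, where Cd3d reached 1389 RPKM against a median of 349.8 over all libraries. After an adjustment for transcript length, added after the data were seen, the rise in miR-27 Tg was 4.94 for S100a8 and 5.27 for S100a9 (limma adjusted p = 0.0203 and 0.0128). Both values were higher, not lower, than the 4.70 and 5.03 of the main fit. How far the adjustment removed the high reading at these lengths was not tested.

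Lyz2, which encodes the lysozyme that macrophages and neutrophils make, was above 0 in every library. The WT libraries held 0.207, 0.918 and 0.170 RPKM in replicates 1, 2 and 3, and the DKO libraries 0.559, 0.983 and 0.717. In miR-23 Tg, columns 3 and 4 and replicate 1 held 1.73, 2.62 and 0.0930 RPKM. These 3 genotypes overlapped throughout. The miR-24 Tg libraries held 15.7, 2.43 and 2.89 RPKM and the cluster Tg libraries 3.66, 2.19 and 2.89. In miR-27 Tg, 2 libraries were far above the third, at 17.3 and 18.3 RPKM in replicates 2 and 3 and 3.63 in replicate 1. The Lyz2 transcript has 1316 nucleotides, a length at which transcripts also read high in miR-27 Tg replicate 3. Mean Lyz2 was 13.1 ± 8.19 RPKM (SD, n = 3) in miR-27 Tg and 0.431 ± 0.422 in WT, a rise of 3.08 ± 0.63 (SE) on the log2 scale (limma adjusted p = 0.00761). The differences of 2.12 in miR-24 Tg and 1.47 in cluster Tg did not pass (limma adjusted p = 0.0821 and 0.195), although every library of both lay above every WT library. Its paralog and neighbour Lyz1, with which reads could be shared, was at 0.327 RPKM or less in all 18 libraries.

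Tyrobp encodes DAP12, an adaptor that carries the signal of receptors such as TREM2 and several NK receptors, and Fcer1g encodes the gamma chain shared by Fc receptors. For Tyrobp the WT libraries held 0.365, 0.432 and 0.667 RPKM and the DKO libraries 0.608, 0.331 and 1.29. In miR-23 Tg it was at 0.854 and 2.49 RPKM in columns 3 and 4 and listed at 0 in replicate 1. The cluster Tg libraries held 1.14, 0.936 and 2.57 RPKM. All cluster Tg values exceeded WT but overlapped those of miR-23 Tg and DKO. In miR-24 Tg the values were 11.7, 3.36 and 1.64 RPKM, and in miR-27 Tg they were 4.21, 10.2 and 14.2. Tyrobp rose in miR-27 Tg by 2.70 ± 0.56 on the log2 scale (limma adjusted p = 0.00818); the differences of 1.83 in miR-24 Tg and 0.73 in cluster Tg did not pass (adjusted p = 0.0915 and 0.562).

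Fcer1g kept the same order of genotypes at lower levels. The WT libraries held 0.0970, 0.172 and 0.426 RPKM, the DKO libraries 0.162, 0.528 and 0.555, and the miR-23 Tg libraries 0.757 and 0.863 in columns 3 and 4 and 0.0873 in replicate 1. In cluster Tg the values were 2.53, 0.448 and 0.859 RPKM. The miR-24 Tg libraries held 8.04, 1.69 and 1.61 RPKM and the miR-27 Tg libraries 3.56, 4.14 and 15.3. The lowest cluster Tg library lay just above the highest WT library and within the DKO and miR-23 Tg range. Fcer1g rose in miR-27 Tg by 2.57 ± 0.52 on the log2 scale (limma adjusted p = 0.00757), and the differences of 1.70 in miR-24 Tg and 0.79 in cluster Tg did not pass (adjusted p = 0.0933 and 0.470). Where both adaptors were above 0, Tyrobp stood at 0.453 to 3.76 times Fcer1g.

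A list of 21 receptors, kinases and other chains that work with these adaptors was read in the same fit. Of these, 6 passed the filter on low values, 2 of them only through libraries of miR-24 Tg, miR-27 Tg or cluster Tg. Syk was among these 2, and the counts support nothing beyond each gene's own value. In miR-24 Tg 2 of the 6 were called, against 3.59% of all genes tested: Klrk1, the NKG2D receptor, and Fcgr3, an Fc receptor for IgG, were higher by 1.45 and 1.27 on the log2 scale (limma adjusted p = 0.00261 and 0.0431). In miR-27 Tg 1 of the 6 was called, against 8.95% of all genes: Syk, a kinase that binds the adaptors' phosphorylated motifs, was higher by 1.72 (adjusted p = 0.0133). None of the 6 was called in cluster Tg, miR-23 Tg or DKO, and the F test called 3 (19.0% of all genes). Hcst, which encodes the adaptor DAP10 and lies next to Tyrobp in the annotation, was abundant in every library, at 110.0 to 728.8 RPKM; it was listed with the adaptor genes and T cells are known to use it.

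**Figure D2:**
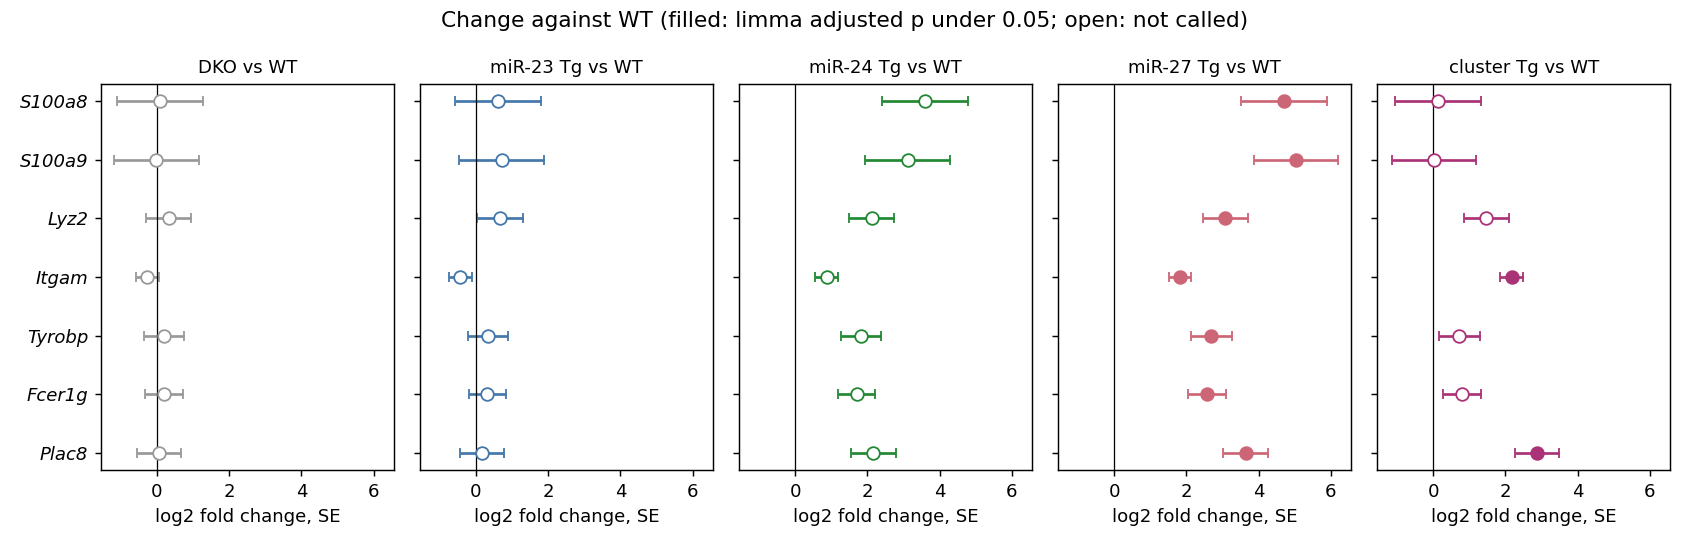
Difference of each of the 7 genes from WT, on the log2(RPKM + 1) scale, with bars of 1 SE from limma and 3 libraries per genotype; filled points have an adjusted p under 0.05. All 7 points are filled in miR-27 Tg, only Itgam and Plac8 in cluster Tg, and none in the other 3 genotypes.

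Itgam encodes CD11b, which pairs with the common beta2 chain Itgb2 to form the complement receptor CR3. Its promoter, at chr7:128062390-128062689 on the plus strand of GRCm38.p6, is shown beside those of the S100 pair because Itgam ordered the genotypes differently; the capitals have the same meaning.
Itgam: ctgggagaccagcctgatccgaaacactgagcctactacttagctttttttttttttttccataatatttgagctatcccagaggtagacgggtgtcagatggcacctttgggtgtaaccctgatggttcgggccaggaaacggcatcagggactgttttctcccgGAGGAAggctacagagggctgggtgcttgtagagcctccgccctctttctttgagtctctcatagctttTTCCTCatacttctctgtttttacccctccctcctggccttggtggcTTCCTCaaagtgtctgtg
GAGGAA was found 3 times, at -84 on the gene's strand and at -15 and 33 on the reverse strand, and TATAAA and both C/EBP forms had no match in these 300 bases. Among the other promoters in the table, those of Lyz2 and Fcer1g had no match to any of the 4 motifs, and Plac8 had 2 annotated starts, 1 with GAGGAA on each strand and 1 with TTNNGCAA.

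Itgam was present in every library and varied less within genotypes than the S100 pair. The WT libraries held 1.92, 1.70 and 1.90 RPKM, the DKO libraries 1.25, 1.71 and 1.17, and the miR-23 Tg libraries 1.17 and 0.964 in columns 3 and 4 and 1.17 in replicate 1. The miR-24 Tg libraries held 4.06, 5.74 and 3.12 RPKM. In miR-27 Tg the values were 14.5, 11.3 and 4.29 RPKM, and in cluster Tg 16.7, 10.1 and 9.69. By group mean the order was cluster Tg, miR-27 Tg, miR-24 Tg, WT, DKO and miR-23 Tg; of neighbours in that order, miR-24 Tg did not overlap WT and DKO narrowly did not overlap miR-23 Tg, while the other neighbouring pairs overlapped. Itgam rose by 2.18 ± 0.32 on the log2 scale in cluster Tg (limma adjusted p = 0.000716), from a mean of 1.84 ± 0.123 RPKM (SD, n = 3) in WT to 12.2 ± 3.96. It rose by 1.82 ± 0.32 in miR-27 Tg (adjusted p = 0.00304) and the difference of 0.87 in miR-24 Tg did not pass (adjusted p = 0.177). In miR-27 Tg the library with the most S100a8 and S100a9 had the least Itgam. That library was replicate 3, where short transcripts read high. The S100a8 and S100a9 transcripts have 498 and 519 nucleotides, and that of Itgam has 4682. The part of transcript length in this contrast was not tested.

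The other beta2 integrin genes differed in whether they followed Itgam. Of the partner chain Itgb2 and the alpha chains Itgal, Itgax and Itgad, Itgal and Itgb2 passed the filter, and neither was called in any comparison. Both are abundant in T cells, and both had their lowest value in miR-27 Tg replicate 3, at 81.2 RPKM for Itgal and 120.8 for Itgb2 against medians of 167.1 and 242.2. Itgax, which encodes CD11c of dendritic cells, was under the filter at 0.0103 to 0.101 RPKM in WT, 0.0418 to 0.0942 in DKO and 0.0727 to 0.257 in miR-23 Tg. It was at 0.275 to 2.42 RPKM in miR-24 Tg, 0.618 to 1.23 in miR-27 Tg and 0.204 to 0.417 in cluster Tg. Every library of these 3 genotypes lay above every WT library, as for Itgam. A gap of that kind occurred for 17.5%, 15.0% and 22.1% of the genes tested in these genotypes. Itgad was at 0.448 RPKM or less in all 18 libraries, with every genotype overlapping WT.

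Plac8 encodes a cysteine-rich protein found in granulocytes, monocytes, plasmacytoid dendritic cells and some T cells. The WT libraries held 0.537, 1.43 and 1.08 RPKM, the DKO libraries 0.895, 0.568 and 1.97, and the miR-23 Tg libraries 0.838 and 3.27 in columns 3 and 4 and 0.403 in replicate 1. The miR-24 Tg libraries held 16.4, 4.31 and 6.68 RPKM. In miR-27 Tg the values were 14.0, 19.4 and 48.0 RPKM, and in cluster Tg 34.9, 6.96 and 9.52. Every library of these 3 genotypes lay above every WT, DKO and miR-23 Tg library, and the 3 overlapped one another. The Plac8 transcript has 1224 nucleotides, a length at which transcripts also read high in miR-27 Tg replicate 3. Plac8 rose by 3.64 ± 0.61 on the log2 scale in miR-27 Tg (limma adjusted p = 0.00256) and by 2.87 ± 0.61 in cluster Tg (adjusted p = 0.00964), and the difference of 2.17 in miR-24 Tg did not pass (adjusted p = 0.0697). Without cluster Tg replicate 1, the library with the most Plac8 of that genotype, the difference in cluster Tg was 2.21 and did not pass (limma adjusted p = 0.0575).

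Whether the 7 genes were called in miR-24 Tg depended on which libraries were in the fit. When the third libraries of miR-27 Tg and DKO were left out of the fit, limma called all 7 genes higher in miR-24 Tg, with unchanged fold changes and adjusted p-values from 0.0107 for S100a8 to 0.0397 for Lyz2 and Tyrobp. Without miR-24 Tg replicate 1, the adjusted p-values ranged from 0.311 for Plac8 to 0.712 for S100a9. In miR-27 Tg all 7 stayed called without replicate 3, with Itgam at 2.28 on the log2 scale (adjusted p = 6.12e-05) and Tyrobp at 2.36 (adjusted p = 0.0240).

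In 3 of the 6 genotypes, 6 of the 7 genes peaked in the same library. They were highest in replicate 1 among the miR-24 Tg libraries, in replicate 3 among the miR-27 Tg libraries and in column 4 among the miR-23 Tg libraries; the exception was Itgam each time. In cluster Tg the peak was divided: replicate 1 was highest for Lyz2, Itgam, Fcer1g and Plac8, and replicate 3 for S100a8, S100a9 and Tyrobp. It was also divided in WT, where each library was highest for 2 of the 7 (S100a8 being listed at 0 in all), and in DKO, where replicates 1, 2 and 3 were highest for 2, 2 and 3 of them. Itgam stood at 3.77 to 14.6 times Tyrobp in the cluster Tg libraries, at 0.302 to 3.44 times in miR-27 Tg and at 2.85 to 5.26 times in WT. The ratio of 0.302 was that of miR-27 Tg replicate 3, where short transcripts read high. Tyrobp is short (597 nucleotides) and Itgam long (4682 nucleotides). The 6 genes that peaked in that library have transcripts of 498 to 1316 nucleotides.

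**Figure D3:**
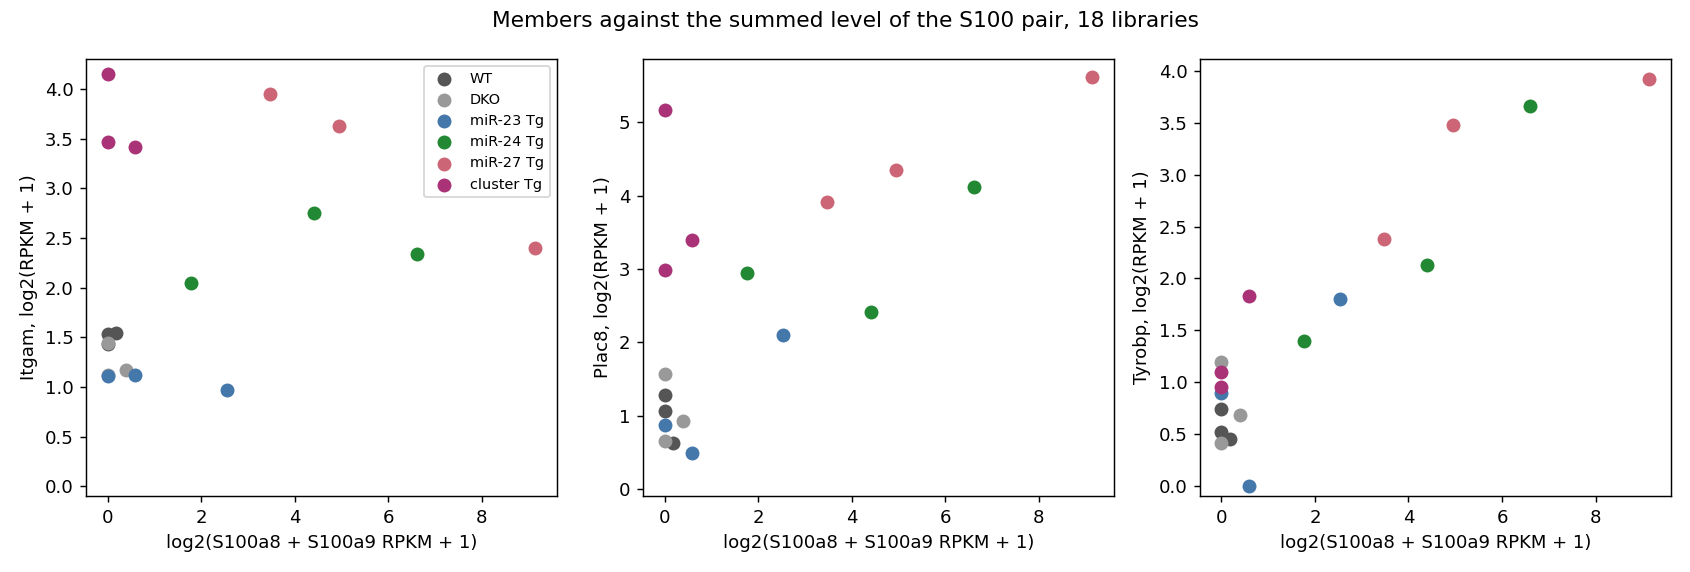
Level of Itgam, Plac8 and Tyrobp against the summed level of S100a8 and S100a9 in the 18 libraries, all axes as log2(RPKM + 1); each point is 1 library, coloured by genotype. Tyrobp is highest in the libraries with the most S100 transcript, whereas the 3 cluster Tg libraries hold high Itgam and raised Plac8 at S100 sums of 0 to 0.507 RPKM.

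Neutrophil genes other than the S100 pair were summed in each library. Of 24 listed genes 23 were in the table, and their sum was 2.82 to 6.84 RPKM in WT, 3.32 to 12.1 in DKO, 2.28 to 5.09 in miR-23 Tg, 5.42 to 8.95 in cluster Tg, 8.16 to 53.0 in miR-24 Tg and 10.4 to 161.5 in miR-27 Tg. In WT most of it was G0s2 (4.14 ± 2.06 RPKM, SD, n = 3). The full sum of DKO replicate 3 lay above the lowest libraries of miR-24 Tg and miR-27 Tg. Short transcripts read high in DKO replicate 3 and in miR-27 Tg replicate 3. The part of transcript length in these sums was not tested. The other 22 genes were under 1 RPKM in every WT library, which makes their WT level low by choice, and their sum was 0.367 to 0.541 RPKM in WT, 0.697 to 2.09 in DKO, 0.476 to 2.33 in miR-23 Tg and 0.484 to 1.06 in cluster Tg. The sum of the 22 was 44.9, 8.32 and 1.66 RPKM in replicates 1, 2 and 3 of miR-24 Tg and 5.95, 12.5 and 142.6 in those of miR-27 Tg. All 22 were above 0 in miR-24 Tg replicate 1 and in miR-27 Tg replicate 3, against 3 in each WT library. The granule genes Ltf, Camp, Ngp and Lcn2 reached 12.9, 54.7, 25.3 and 17.9 RPKM in miR-27 Tg replicate 3, and were next highest in miR-24 Tg replicate 1. The receptor Csf3r was listed at 0 in WT, was at most 0.0301 RPKM in DKO, miR-23 Tg and cluster Tg, and was at 0 to 0.567 in miR-24 Tg and 0.194 to 0.840 in miR-27 Tg. The early granule enzyme Mpo reached 0.475 RPKM in miR-27 Tg replicate 3, 0.384 in DKO replicate 3 and 0.324 in miR-24 Tg replicate 1. Of the 5 neutrophil genes that passed the filter, 4 did so only through miR-24 Tg, miR-27 Tg or cluster Tg libraries. Il1b, the interleukin-1 beta gene, was called higher by 1.35 on the log2 scale in miR-27 Tg (limma adjusted p = 0.00272). Over all genes 5.77% were called higher there. None of the 5 was called in the other comparisons with WT. These called 8.48% of genes in cluster Tg, 3.59% in miR-24 Tg, 0.0450% in miR-23 Tg and 0.00% in DKO. The counts support nothing beyond each gene's own value.

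Monocyte and macrophage genes were called in the genotypes with high Itgam and Plac8. Of 29 listed genes, 14 passed the filter; 9 were called higher in miR-27 Tg, 5 in cluster Tg, 2 in miR-24 Tg, and none was called lower. Over all genes 5.77% were called higher in miR-27 Tg, 5.63% higher in cluster Tg and 3.59% in either direction in miR-24 Tg. Of the 14, 7 passed only through libraries of these 3 genotypes, so the counts and medians describe the list and support nothing further. In miR-27 Tg the largest were Ifitm3, an interferon-inducible membrane protein, by 3.40 on the log2 scale (limma adjusted p = 8.53e-05), its relative Ifitm6 by 1.94, the chemokine receptor Ccr2 by 1.90 and the transcription factor Spi1 (PU.1) by 1.57. In cluster Tg they were Ifitm3 by 2.31 (adjusted p = 0.00111), Ccr2 by 1.67, the lectin Lgals3 by 1.38 and the coagulation factor chain F13a1 by 1.26. In miR-24 Tg they were Fcgr3 and Ms4a6c, by 1.27 and 0.58. The list median was 0.93, 0.58 and 0.72 in these 3 comparisons, against 0.03, 0.00 and 0.01 over all genes tested. The defining receptor Csf1r, under the filter, was at 0.0132 to 0.0640 RPKM in WT, 0.0294 to 0.0800 in DKO and 0.0216 to 0.470 in miR-23 Tg. It was at 0.162 to 1.30 RPKM in miR-24 Tg, 0.367 to 1.75 in miR-27 Tg and 0.194 to 0.261 in cluster Tg. Every library of these 3 genotypes lay above every WT library, a gap seen for 17.5%, 15.0% and 22.1% of the genes tested. Cd14 was listed at 0 in all WT libraries and reached at most 0.285 RPKM, in miR-27 Tg replicate 2. WT T cells themselves held 5 of the 29 genes at 1 RPKM or more in every library, led by the protease gene Ctss at 146.5 ± 12.4 RPKM (SD, n = 3). The summed list was 192.0 to 217.2 RPKM in WT, 211.1 to 321.0 in DKO and 190.4 to 214.2 in miR-23 Tg. It was 222.3 to 276.8 in miR-24 Tg, 281.9 to 345.6 in miR-27 Tg and 200.8 to 228.0 in cluster Tg. The highest sums of DKO and of miR-27 Tg were those of replicate 3, where short transcripts read high.

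B cell genes moved with the 7 genes only in part. Where all 12 listed B cell genes peaked in 1 library of a genotype, Itgam was highest in another. All 12 listed genes were above 0 in every library, and their sum was 5.62 to 7.26 RPKM in WT, 5.59 to 8.20 in DKO and 5.44 to 23.1 in miR-23 Tg. It was 22.0 to 94.5 in miR-24 Tg, 32.6 to 157.5 in miR-27 Tg and 20.9 to 42.7 in cluster Tg. The sum of 157.5 was that of miR-27 Tg replicate 3, where short transcripts read high. Of the 10 that passed the filter, all were called higher in miR-27 Tg and 5 in miR-24 Tg, and none was called in cluster Tg, miR-23 Tg or DKO; 5.77% and 3.59% of all genes were called higher in miR-27 Tg and in either direction in miR-24 Tg. Because 8 of the 10 passed only through libraries of miR-24 Tg, miR-27 Tg or cluster Tg, the filter favoured a difference in them. The counts support nothing beyond each gene's own value. In miR-27 Tg the receptor chains Cd79b and Cd79a rose by 3.26 and 2.68 on the log2 scale and Ms4a1 (CD20) by 2.44 (limma adjusted p = 0.00710, 0.00262 and 0.00693). In miR-24 Tg, Cd22 was higher by 1.90, Cd79a by 1.84 and Fcer2a by 1.66. The library highest for 6 of the 7 genes was also highest for all 12 B cell genes within miR-24 Tg (replicate 1) and miR-23 Tg (column 4). In miR-27 Tg, replicate 3 was highest for 6 of the 7 genes but for 5 of the 12 B cell genes, and replicate 2 for the other 7. In cluster Tg all 12 B cell genes were highest in replicate 3, while replicate 1 was highest for 4 of the 7. No defining marker of the B cell list was listed at 0; the part of other cell types in the levels of the 7 genes was not tested.

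**Figure D4:**
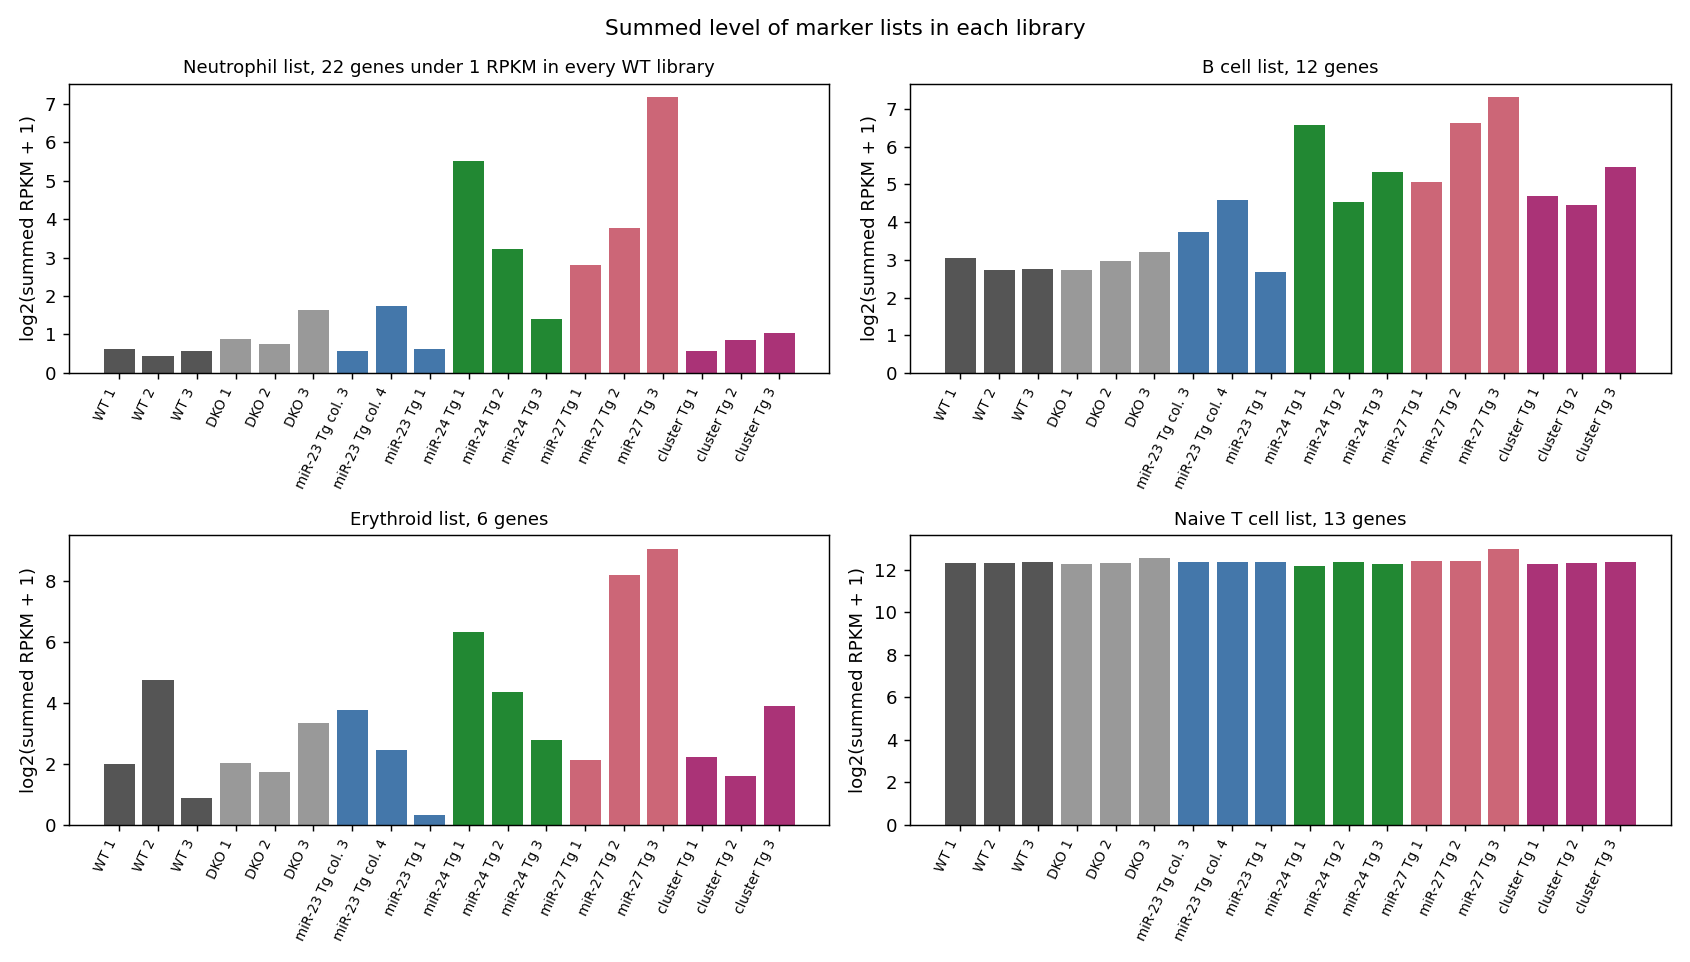
Summed level of 4 marker lists in each library, as log2(summed RPKM + 1): neutrophil genes under 1 RPKM in WT, B cell genes, erythroid genes and naive T cell genes, with 1 bar per library coloured by genotype. Neutrophil sums peak in miR-27 Tg replicate 3 and miR-24 Tg replicate 1. B cell sums are raised in all miR-24 Tg, miR-27 Tg and cluster Tg libraries. The naive T cell sum is 4728 to 8072 RPKM throughout, highest in miR-27 Tg replicate 3. Short transcripts read high in that library and in DKO replicate 3.

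T cell genes set the scale for these levels. The sum of 13 naive T cell genes was 5077 to 5243 RPKM in WT and 4728 to 8072 over all libraries. It was highest in miR-27 Tg replicate 3, where short transcripts read high. Of the 13, 2 were called higher in cluster Tg, with S1pr1, a receptor for exit from lymphoid tissue, higher by 0.58 on the log2 scale (limma adjusted p = 0.0381), and none was called in the other 4 comparisons with WT. Of 18 effector T cell genes that passed the filter, 14 were called higher and 1 lower in cluster Tg, 11 higher in miR-24 Tg, and 9 higher and 1 lower in miR-27 Tg. The share of all genes called was 8.48%, 3.59% and 8.95% in these comparisons, and 4 of the 18 passed the filter only through libraries of these 3 genotypes. In cluster Tg the largest were S100a6 by 3.58, the granzyme Gzmk by 3.55, Ly6c2 by 3.52 and S100a4 by 3.36 on the log2 scale. In miR-24 Tg and miR-27 Tg the chemokine gene Ccl5 came first, by 3.71 and 3.61. None was called in miR-23 Tg or DKO. The genotypes in which Itgam or Plac8 was called were among those with called effector genes, and the part of T cell transcription in the levels of both was not tested.

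Genes whose levels ordered the 18 libraries most like each of the 7 are given as a description by Spearman's rho; groups of 3 libraries share a genotype, so the points are not independent. For S100a8 they were Ngp (0.894), Ifitm6 (0.884) and Il1b (0.877), and for S100a9 Plbd1 (0.856), Ngp (0.851) and Snx8 (0.815). For Lyz2 they were Blk (0.959), a kinase of B cells, Lmo2 (0.953) and Cyp4f18 (0.952). Tyrobp was followed most closely by Serpinb1a (0.942), Mzb1 (0.942) and Blnk (0.928), the last an adaptor of B cell receptor signalling. For Fcer1g they were Sirpa (0.940), an inhibitory receptor of macrophages, and Pld4 (0.938). Itgam had none of these among its nearest genes, which were Phldb1 (0.967), Snx33 (0.963) and the integrin chain Itga5 (0.955). For Plac8 they were 2810417H13Rik (0.944), Lxn (0.932) and Tmem176a (0.932).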

How the data were processed

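The authors deposited 1 table of RPKM values per gene and library. The submitters' processing notes name STAR (2.2.0c), HOMER and build mm9; the sources used here do not give the role of each, the gene models, the strand setting or how shared reads were counted. No step was repeated. Where a symbol was repeated, the row of higher mean was kept. The 11099 genes that reached 1 RPKM in 3 or more libraries were tested as log2(RPKM + 1) with limma 3.58.1 under R 4.3.3 (eBayes with a trend), genotype as the only term, on all 18 libraries, and adjusted by Benjamini-Hochberg with a threshold of 0.05. Each genotype was compared with WT; these comparisons share the WT libraries. The procedure was tested on simulated data. The 7 genes and the 11 marker lists were chosen with earlier results of these data known. Besides the 7 genes and the defining markers, the text names up to 4 called genes of largest change per list and comparison and the 3 genes most alike per member; Cd3d, Hcst, Itgal, Itgb2, Lyz1, Ctss, Lcn2, Camp, Ngp, G0s2, Itgad and Hbb-b1 were named after their values were seen. Some single genes that this rule names are not reported here. Promoters came from a RefSeq table of build GRCm38.p6, used for sequence and gene order alone, in which 6 of the 7 genes had an entry (not Tyrobp). Alternatives covered the filter, pseudocount, scaling, libraries in the fit, weights, replicate block, leaving out each library and an adjustment for transcript length.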

Additional observations from a re-analysis of the deposited data

How the results depend on the processing

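Numbers of called genes moved more than directions. The main counts against WT were 941 in cluster Tg, 5 in miR-23 Tg, 398 in miR-24 Tg, 993 in miR-27 Tg and 0 in DKO, with 2105 in the F test. In that order they became 2302, 14, 851, 43 and 4 when limma was fitted to the 6 libraries compared. With library quality weights they were 3868, 2272, 3402, 3522 and 3 (F test 8211). With the third libraries of miR-27 Tg and DKO both left out they were 3225, 432, 1937, 2218 and 2 (F test 5648). The adjustment for transcript length, chosen after seeing the data, gave 1497, 20, 779 and 1508 for the 4 transgenics and 3290 for the F test. Quantile normalisation gave 2 in miR-23 Tg, and in cluster Tg it turned 625 higher and 316 lower genes into 564 and 611; in miR-24 Tg it gave 219 higher and 199 lower, from 258 and 140. Leaving out 1 library in turn gave 419 to 710 in cluster Tg, 1 in miR-23 Tg, 180 to 303 in miR-24 Tg, 533 to 1223 in miR-27 Tg, 0 in DKO and 1575 to 3809 in the F test, the last without miR-27 Tg replicate 3. Counts moved by over 1.5 times without any WT library in the 4 transgenics (533, 613 and 548 in miR-27 Tg without WT replicates 1, 2 and 3), without cluster Tg replicate 1 (419), and without miR-24 Tg replicate 1 or 3 (180 and 242). The cause was not tested.

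With a replicate block, 837 genes were called in cluster Tg, S100a8 in miR-27 Tg was lost (adjusted p = 0.0609), and in the F test S100a8 and S100a9 were lost (0.0856 and 0.0775). Columns 3 and 4 of miR-23 Tg, which carry no number of their own, were left out of that fit. Deviations from the genotype mean correlated by -0.111 to 0.58 (median 0.0806) between libraries of the same number. Between libraries of different numbers they correlated by -0.475 to 0.295 (median -0.0382), and 8 of 15 libraries correlated best with their own number. The labels do not say what libraries of the same number share, and the main fit held no replicate term. The values with the replicate block are therefore to be read beside those of the main fit.

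Single genes in miR-24 Tg also crossed the threshold with the length adjustment (Fcer1g 0.0263, Lyz2 0.0476, Plac8 0.0279), with a pseudocount of 0.1 RPKM (S100a8 0.0284, Fcer1g 0.0438) and in the 6-library fit (Itgam 0.0494, Plac8 0.0461); Lyz2 did so in cluster Tg in the 6-library fit (0.0134). Directions reversed for differences that were not called; the values without 1 library include the opposite end of their range. For Plac8 in DKO the log2 value was -0.041 length-adjusted, -0.338 with weights, -0.201 without DKO replicate 3 or both apart libraries and -0.121 without WT replicate 1, up to 0.261 without DKO replicate 2. In miR-23 Tg Plac8 was -0.303 without column 4, -0.712 with the replicate block and -0.016 without WT replicate 1 (up to 0.499 without replicate 1), Tyrobp -0.123 without column 4 (up to 0.779 without replicate 1) and -0.567 with the block, and Fcer1g and Lyz2 -0.334 and -0.354 with the block. Tyrobp in DKO was -0.094 with weights and -0.019 without DKO replicate 3 or both apart libraries, up to 0.373 without DKO replicate 2. S100a8 in DKO was -0.030 length-adjusted. S100a9 in DKO was 0.016 without DKO replicate 2, DKO replicate 3 or both apart libraries and 0.052 without WT replicate 1. S100a9 in cluster Tg was -0.068 length-adjusted, -0.009 with weights, -0.073 after quantile normalisation, -0.062 without replicate 3, and -0.011 without WT replicate 2 or 3, up to 0.083 without WT replicate 1.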

Other observations

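Haemoglobin and other red cell genes varied widely within genotypes. The sum of 6 erythroid genes was 0.854 to 26.1 RPKM in WT, 2.28 to 9.06 in DKO, 0.232 to 12.5 in miR-23 Tg and 2.04 to 13.9 in cluster Tg. It was 5.82 to 79.8 in miR-24 Tg and 3.36 to 525.3 in miR-27 Tg, so that every genotype overlapped WT. The beta globin gene Hbb-b1 reached 284.7 RPKM in miR-27 Tg replicate 3 and 194.6 in replicate 2. Short transcripts read high in replicate 3, and the part of transcript length in these levels was not tested. None of the 4 erythroid genes that passed the filter was called by limma in any comparison.

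Some natural killer genes were called in 3 genotypes. Of the 6 that passed the filter, Nkg7, a cytotoxic granule protein, was called higher by 3.14 on the log2 scale in cluster Tg, by 2.51 in miR-24 Tg and by 3.06 in miR-27 Tg (limma adjusted p = 0.00139, 0.0133 and 0.00221). The share of all genes called was 8.48%, 3.59% and 8.95% in these comparisons. Eomes was called higher in cluster Tg by 1.23, and the receptor genes Klrd1 and Klrk1 in miR-24 Tg by 1.69 and 1.45. Prf1, the perforin gene, fell by 1.94 in miR-27 Tg (adjusted p = 0.000276). Ncr1, which defines natural killer cells, was at most 1.20 RPKM in any library. WT T cells held 4 of the 10 listed genes at 1 RPKM or more in every library. Of 10 dendritic cell genes 2 passed the filter, and Bst2 was called higher in miR-27 Tg by 1.40 (adjusted p = 0.0156). Of 6 platelet genes 1 passed the filter, and it was called in no comparison.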
